A study of Mus musculus with 45 samples.

Results

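The CaM kinases are the protein kinases that calcium-bound calmodulin switches on. Their mRNAs were followed in mouse hippocampal primary neurons through 10 genes, which are Camk1, Camk1d, Camk1g, Camk2a, Camk2b, Camk2d, Camk2g, Camk4, Camkk1 and Camkk2. They were taken as the rows of the count table whose Ensembl identifiers carry these symbols, 10 of 54532 genes. All 10 had reads in each of the 45 libraries, so that no member was lost to the filter on low counts.

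Calcium that enters a neuron through NMDA receptors or voltage-gated channels binds calmodulin, and the complex releases these kinases from their autoinhibition. CaMKII, encoded by the 4 Camk2 genes, is among the most abundant proteins of excitatory synapses in the forebrain, and its subunits phosphorylate each other and thereby stay active after calcium has fallen. CaMKI (Camk1, Camk1d, Camk1g) and CaMKIV (Camk4) gain full activity when a CaM kinase kinase (Camkk1, Camkk2) phosphorylates their activation loop, and CaMKIV is the nuclear member known for phosphorylating the transcription factor CREB.

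Cultures of C57BL/6N hippocampal neurons from newborn mice were grown with B27 and rat serum. They received the mitosis inhibitor AraC on day in vitro 3 and were treated on day 10 or 11 per the labels. The methods of the RNA sequencing give day 11. The 9 conditions were an untreated control, bicuculline (Bic, 50 µM), which blocks GABA type A receptors and sets off action potential firing, for 0.5, 1 or 2 h, and 5 interventions added in the continued presence of Bic. The short protocol (SP) added the sodium channel blocker tetrodotoxin (TTX, 1 µM), alone or together with NMDA (30 µM), after 0.5 h of firing and ended 0.5 h later. The long protocol (LP) added TTX, TTX/NMDA or TBOA (50 µM), an inhibitor of glutamate uptake, after 1 h and ended another 1 h later. Each condition had 5 libraries, from the culture preparations numbered 1, 3, 6, 7 and 8, and values below follow that order. The cultures were not purified for neurons, and pooled RNA cannot tell fewer cells of a type from less of an mRNA per cell.

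Libraries held between 11316580 and 81129276 counts on genes. Levels are given as CPM, counts scaled to libraries of 1000000 counts after TMM normalization over all 45 libraries, and effects as log2 fold changes with their standard errors (SE) from edgeR's quasi-likelihood test, called when the Benjamini-Hochberg adjusted p over all tested genes was under 0.05. The passive effect compares TTX with Bic of the same total duration, the active effect TTX/NMDA with TTX, the total effect TTX/NMDA with Bic, and the spillover effect TBOA with 2 h of Bic. These comparisons share libraries, and so their values are given side by side without a correlation. The passive and total effects use the same Bic libraries, and the spillover effect the same 2 h Bic libraries as those of the LP. The passive and active effects use the same TTX libraries, and the active and total effects the same TTX/NMDA libraries.

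The codons of the threonines whose phosphorylation gives CaMKI full activity or keeps CaMKII active are shown because they mark how the family is wired. In each stretch of 30 bases of coding sequence (GENCODE M21, GRCm38), the threonine codon stands in capitals. The stretches of the CaMKI genes hold the activation-loop threonine that the CaM kinase kinases phosphorylate, codon 177 in Camk1, 180 in Camk1d and 178 in Camk1g:
Camk1: agtgtgctctccACAgcctgtgggactcca
Camk1d: gatgtgatgtccACGgcctgcgggacccca
Camk1g: ggagtcatgtccACAgcttgtgggacccca
These codons lie on the minus strands of chromosome 6 at 113338305 to 113338307 (exon 6 of 12 of the transcript used), chromosome 2 at 5354694 to 5354696 (exon 5 of 11) and chromosome 1 at 193354017 to 193354019 (exon 6 of 13). Camk1 differed from Camk1d and from Camk1g at 7 of the 30 bases, and Camk1d from Camk1g at 6.

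The CaMKII stretches hold the autophosphorylation threonine, codon 287 in all of the genes shown:
Camk2b: cacagacaggagACTgtggaatgtctgaag
Camk2d: cacaggcaggagACTgtagactgcttgaag
Camk2g: catcgccaagagACGgtagagtgcttacgc
They lie on chromosome 11 at 5988997 to 5988999 (minus strand, exon 11 of 21), chromosome 3 at 126797741 to 126797743 (plus strand, exon 11 of 19) and chromosome 14 at 20760439 to 20760441 (minus strand, exon 11 of 21). Camk2b and Camk2d differed at 5 bases, Camk2b and Camk2g at 13, and Camk2d and Camk2g at 10. No stretch of 75 bases, the read length, in the annotated transcripts of any member was shared with another gene, so reads of these paralogs could be told apart.

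Among the 8 RefSeq promoter windows matched to 7 members (250 bases before to 50 after the transcription start, GRCm38.p6), 2 held the half-site of the cAMP response element, to which CREB binds (TGACG on either strand), as did 20.8% of all 32851 promoter windows. They belonged to Camk1 (chromosome 6, 113344090 to 113344119, minus strand) and Camkk1 (chromosome 11, 73018810 to 73018839, plus strand), with the half-site in capitals beginning at base -185 and base -166 from the start:
Camk1: cttgtctcctgcTGACGaccaaagggcaca
Camkk1: gcgccgggggcgTGACGcgtcggggcccat
None of the 8 windows held the full element TGACGTCA, which 1.79% of all windows had. Such a match describes letters, not binding. Promoter windows of Camk2a and Camk4 are not reported here, and none was at hand for Camk2g.

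In untreated neurons, Camk2a, Camk2b and Camk4 stood well above the other members when reads were divided by gene length. With the summed length of all annotated exons, Camk2a had 143 ± 28.6, Camk2b 116 ± 3.58 and Camk4 108 ± 10.6 CPM per kilobase (mean ± SD, n = 5). The ranges of these neighbours overlapped, while every Camk4 library lay above every library of the next gene, Camk2g (26.4 ± 1.24). Camk1d followed with 23.98 ± 3.58, Camkk2, Camkk1 and Camk1g lay together between 14.4 and 14.6 on average, and Camk1 (5.21 ± 0.26) and Camk2d (4.35 ± 0.45) were lowest. With the longest annotated transcript as the length, Camk2b came first with 258 ± 7.92 and Camk2a next with 214 ± 42.99 CPM per kilobase, and Camk1 was lowest with 12.98 ± 0.66. Several orders depended on the length used. Those of Camk2a with Camk2b and of Camk1d with Camkk2 turned (25.58 and 32.7 CPM per kilobase by the longest transcript), and Camk2d went from rank 10 to rank 7, passing Camk1, Camk1g and Camkk1.

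**Figure D1:**
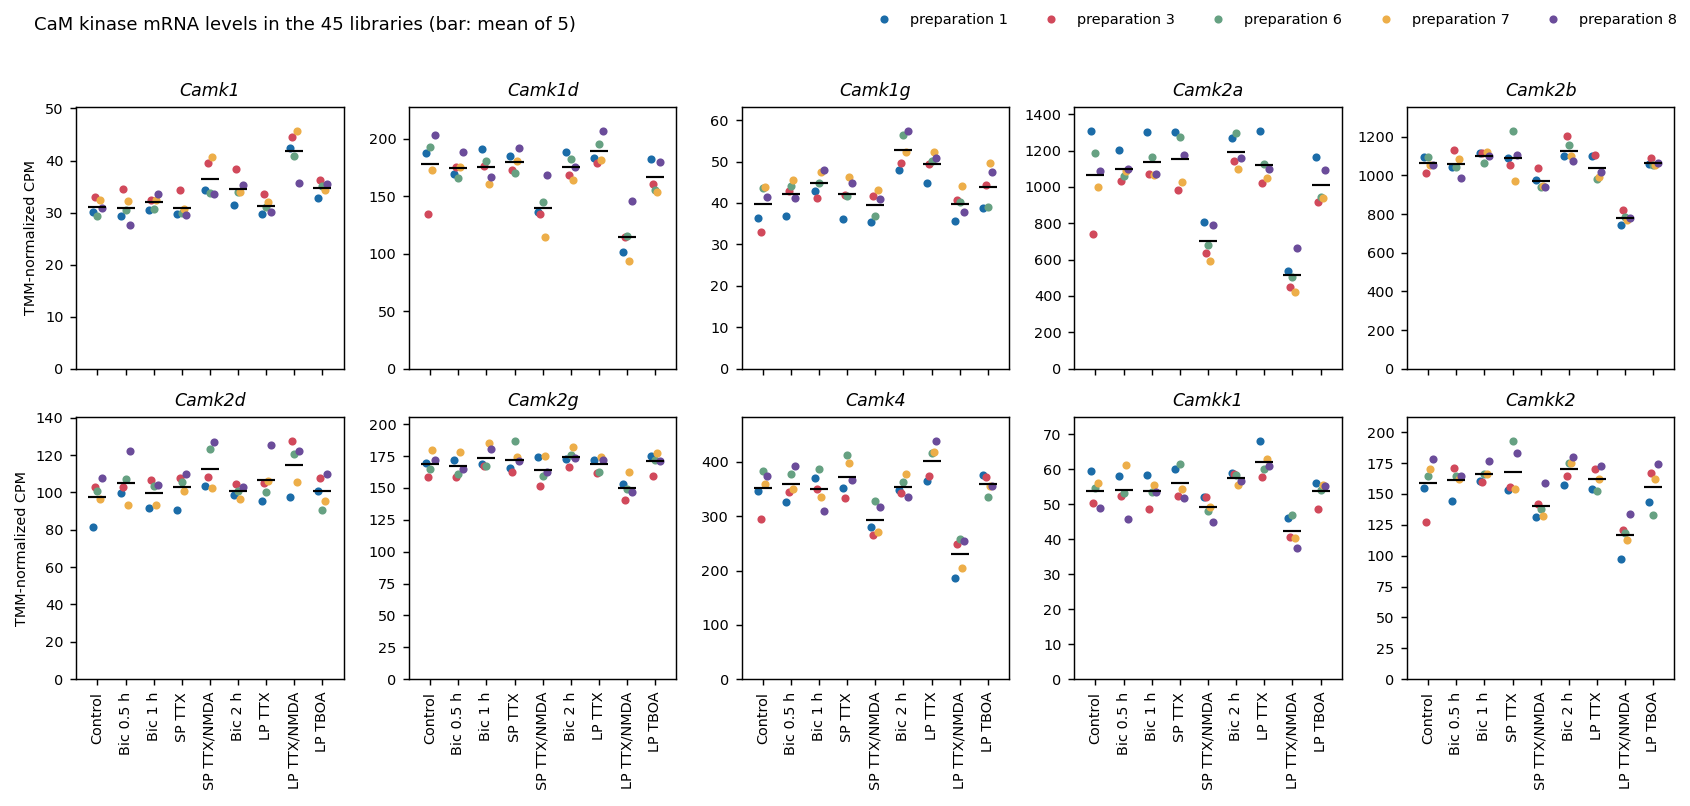
TMM-normalized CPM (vertical axis, linear, from 0) of each CaM kinase gene in the 9 conditions, with 1 point per library coloured by preparation and a bar at the mean of 5. Camk2a, Camk4 and Camk1d are lowest in LP TTX/NMDA, with means of 516, 231 and 114 CPM, while Camk1 is highest there with 41.8 CPM.

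After Bic alone, Camk1g was the member that was called, higher after 2 h. It encodes CaMKI gamma, a lipid-anchored form of the kinase (ENSMUSG00000016179, chromosome 1, 193346346 to 193370298, minus strand). Camk1g had 36.4, 32.9, 43.7, 43.9 and 41.5 CPM in the controls and 47.9, 49.6, 56.5, 52.3 and 57.5 CPM after 2 h of Bic. All 5 treated libraries lay above all 5 controls, and such a separation in either direction was seen in 1 of 10 members and in 8.34% of the genes tested. The rise was 0.40 on the log2 scale (SE 0.09, adjusted p = 0.00143 by edgeR), between 19.1% and 50.7% within the preparations. Its mean level was 39.7 ± 4.84 CPM in the control, 42.1 ± 3.40 at 0.5 h, 44.9 ± 2.92 at 1 h and 52.7 ± 4.19 at 2 h (SD, n = 5). From 1 to 2 h it rose by 0.23 (SE 0.07, adjusted p = 0.0471, higher in 5 of 5 preparations), with overlapping libraries.

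Thus 1 of 10 members was called after 2 h of Bic. Of the 30929 genes tested 9.02% were called, and of the 13592 genes with a mean of at least 1 CPM 18.6%. The share of members was near that of all genes and below that of genes with at least 1 CPM. The comparison of 2 with 1 h also gave 1 of 10, against a background of 5.33%, and of 11.6% among genes with at least 1 CPM. No member was called after 0.5 h (background 0.289%), after 1 h (1.16%) or between 0.5 and 1 h (0.677%), and in these 3 comparisons edgeR and DESeq2 called 0 and no member had an unadjusted p under 0.05. The member fold changes ran from -0.03 to 0.10 at 0.5 h and from -0.03 to 0.17 at 1 h. The call of Camk1g between 1 and 2 h was lost without preparation 1 (0.25, adjusted p = 0.0886), 3 (0.23, adjusted p = 0.124), 6 (0.21, adjusted p = 0.198) or 7 (0.25, adjusted p = 0.0831) and when all 45 libraries shared a fit (0.24, adjusted p = 0.088). The control library of preparation 3 was the lowest control for Camk1d, Camk1g, Camk2a, Camk2b, Camk2g, Camk4 and Camkk2.

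NMDA on top of TTX, the active effect, changed most of the family in the LP. Of 10 members, 7 fell and 1 rose, where 23.3% of the 32852 genes tested were called, 11.8% of them lower, and where 46.9% of the genes with at least 1 CPM were called, 26.9% lower. The median fold change of the members was -0.46, that of all genes tested 0.11 and that of genes with at least 1 CPM -0.01. In 8 members the 5 libraries of TTX/NMDA did not overlap those of TTX, which held for 15.8% of all genes and 33% of genes with at least 1 CPM. Against 2 h of Bic, the total effect, 8 members fell and 1 rose (background 22.8%, 11.1% lower), with a median of -0.50 beside 0.11 for all genes.

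Camk2a, the alpha subunit of CaMKII and a gene typical of excitatory forebrain neurons (ENSMUSG00000024617, chromosome 18, 60925618 to 60988152, plus strand), fell furthest. It had 1310, 1023, 1128, 1048 and 1100 CPM with TTX and 539.8, 449.6, 503, 424 and 664 CPM with TTX/NMDA. Every LP TTX/NMDA library lay below every library of the 7 conditions without NMDA, and preparation 8 kept the highest level. The active effect was -1.13 (SE 0.09, adjusted p = 1.15e-10 by edgeR), with a mean change of -53.9% ± 8.16 within preparations (SD, n = 5). It was -39.6% in preparation 8 and between -55.4% and -59.5% in the others. The total effect was -1.22 (SE 0.09, adjusted p = 6.37e-13, lower in 5 of 5 preparations). In order of mean level, Camk2a ran from 1194 ± 85.7 CPM after 2 h of Bic through 1152 ± 144 with SP TTX, 1136 ± 101 after 1 h of Bic, 1122 ± 113 with LP TTX, 1096 ± 66.3 after 0.5 h of Bic, 1066 ± 214 in the control and 1011 ± 111 with TBOA to 702 ± 94.7 and 516 ± 94.3 with SP and LP TTX/NMDA. Neighbours in this order overlapped except that all TBOA libraries lay above all SP TTX/NMDA libraries.

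Camk2b, the beta subunit, which ties the holoenzyme to actin (ENSMUSG00000057897, chromosome 11, 5969644 to 6066362, minus strand), had 1099, 1105, 982, 994 and 1020 CPM with LP TTX. With TTX/NMDA it had 742, 822, 784, 769.7 and 778 CPM, below all TTX libraries. Its active effect of -0.42 (SE 0.06, adjusted p = 5.69e-06) was smaller than that of Camk2a on the log2 scale. The broadly expressed gamma subunit Camk2g (ENSMUSG00000021820, chromosome 14, 20734875 to 20794088, minus strand) moved from 169 ± 5.71 to 150.3 ± 8.03 CPM, an active effect of -0.17 (SE 0.06) that missed the threshold (adjusted p = 0.0505) although lower in 5 of 5 preparations. With the preparation as a block, a fit that also used edgeR's filterByExpr on low counts, it was called (-0.15, adjusted p = 0.00656), as it was with DESeq2 (adjusted p = 0.0147), with filterByExpr (adjusted p = 0.0464) and with all 45 libraries in a fit (adjusted p = 0.025). The total effect of Camk2g, -0.23 (adjusted p = 0.0104), was called and lost without preparation 3 (-0.19, adjusted p = 0.0746) or 6 (-0.20, adjusted p = 0.0635).

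Camk2d, the delta subunit, best known from the heart (ENSMUSG00000053819, chromosome 3, 126596302 to 126846326, plus strand), was not called in the LP active effect, and its fold change was above 0. It had 95.6, 105, 99.9, 106 and 125 CPM with LP TTX and 97.8, 127.5, 120.4, 106 and 122 CPM with TTX/NMDA. The active effect of 0.10 (SE 0.08, 95% interval -0.06 to 0.25, adjusted p = 0.408) was not significant, and 3 of 5 preparations were higher. The total effect of 0.18 (SE 0.07, adjusted p = 0.0702) was called with the preparation as a block (0.20, adjusted p = 0.00822), with filterByExpr (0.20, adjusted p = 0.028) and without preparation 1 (0.25, adjusted p = 0.0168).

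The makeup of CaMKII message differed between the conditions. Among the summed counts of the 4 genes, Camk2a made up 45.96% ± 2.38 with LP TTX and 32.9% ± 4.17 with TTX/NMDA (SD, n = 5), and Camk2b 42.7% ± 2.02 and 50.1% ± 3.23. The share of Camk2d went from 4.39% ± 0.58 to 7.35% ± 0.71 and that of Camk2g from 6.93% ± 0.40 to 9.67% ± 0.95. Only for Camk2b did the 5 libraries of both conditions overlap in this share. The ratio of Camk2a to Camk2b counts was 1.08 ± 0.10 with TTX and 0.664 ± 0.13 with TTX/NMDA, lower in 5 of 5 preparations. It was 0.726 ± 0.11 with SP TTX/NMDA. These shares are of read counts, without correction for gene length.

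**Figure D2:**
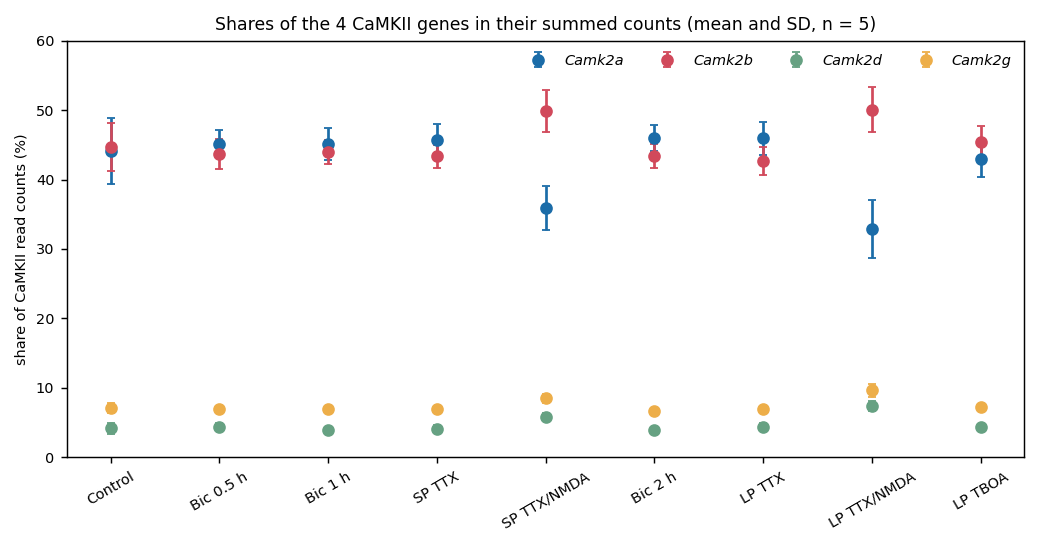
Share of each of the 4 CaMKII genes in their summed read counts (percent, vertical axis) in the 9 conditions, as the mean of 5 libraries with the SD as the bar. Camk2a and Camk2b lie close to each other in every condition but SP and LP TTX/NMDA, where Camk2a is at 35.9% and 32.9% and Camk2b at 49.8% and 50.1%.

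Camk4 encodes CaMKIV, the nuclear kinase of the cascade (ENSMUSG00000038128, chromosome 18, 32934931 to 33191228, plus strand). It had 364.5, 374, 416, 419 and 438.5 CPM with LP TTX and 187, 248, 258, 205 and 254 CPM with TTX/NMDA. The 5 LP TTX/NMDA libraries were the lowest of all 45. The active effect was -0.81 (SE 0.08, adjusted p = 7.12e-09 by edgeR), with changes between -33.6% and -51.05% within the preparations, and the total effect -0.63 (SE 0.08, adjusted p = 8.76e-08). An exon of 2310026I22Rik overlaps Camk4 on the opposite strand, as one of Ogg1 overlaps Camk1, and the authors counted reads by strand.

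The 3 CaMKI genes went different ways. Camk1d, CaMKI delta (ENSMUSG00000039145, chromosome 2, 5293457 to 5714515, minus strand), had 183, 179, 196, 181 and 207 CPM with LP TTX and 101.5, 115, 115.5, 93.6 and 146 CPM with TTX/NMDA. Its active effect was -0.74 (SE 0.09, adjusted p = 9.47e-08). Camk1, CaMKI alpha (ENSMUSG00000030272, chromosome 6, 113334124 to 113343984, minus strand), had 29.7, 33.6, 31.1, 32.02 and 30.04 CPM with LP TTX and 42.5, 44.4, 40.8, 45.75 and 35.7 CPM with TTX/NMDA. It was the member that rose, by 0.41 (SE 0.08, adjusted p = 0.000134) and without overlap, by 18.9% in preparation 8 and by 31.1% to 42.99% in the others. Against 2 h of Bic the rise was 0.26 (SE 0.08, adjusted p = 0.0119, 5 of 5 preparations), with overlapping libraries and only 1.40% in preparation 8. Camk1g fell back from 49.5 ± 2.84 to 39.8 ± 3.19 CPM, close to its level in the control, with an active effect of -0.33 (SE 0.07, adjusted p = 0.00116) and a total effect of -0.42 (SE 0.08, adjusted p = 5.05e-05). The ratio of Camk1d to Camk1 counts was 6.07 ± 0.60 with TTX and 2.79 ± 0.78 with TTX/NMDA, lower in 5 of 5 preparations.

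Both upstream kinases fell. Camkk1 (ENSMUSG00000020785, chromosome 11, 73019008 to 73042073, plus strand) had 68.1, 57.8, 60.2, 63.1 and 60.9 CPM with LP TTX and 46.1, 40.6, 46.97, 40.4 and 37.5 CPM with TTX/NMDA, an active effect of -0.56 (SE 0.07, adjusted p = 1.05e-06). Camkk2, which also phosphorylates the energy sensor AMPK (ENSMUSG00000029471, chromosome 5, 122731170 to 122779409, minus strand), had 154, 170.1, 153, 162 and 172 CPM with TTX and 96.9, 120.5, 118, 113 and 134 CPM with TTX/NMDA, an active effect of -0.49 (SE 0.07, adjusted p = 8.27e-06). Neither gene's libraries overlapped between TTX and TTX/NMDA, and both were lower in 5 of 5 preparations.

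**Figure D3:**
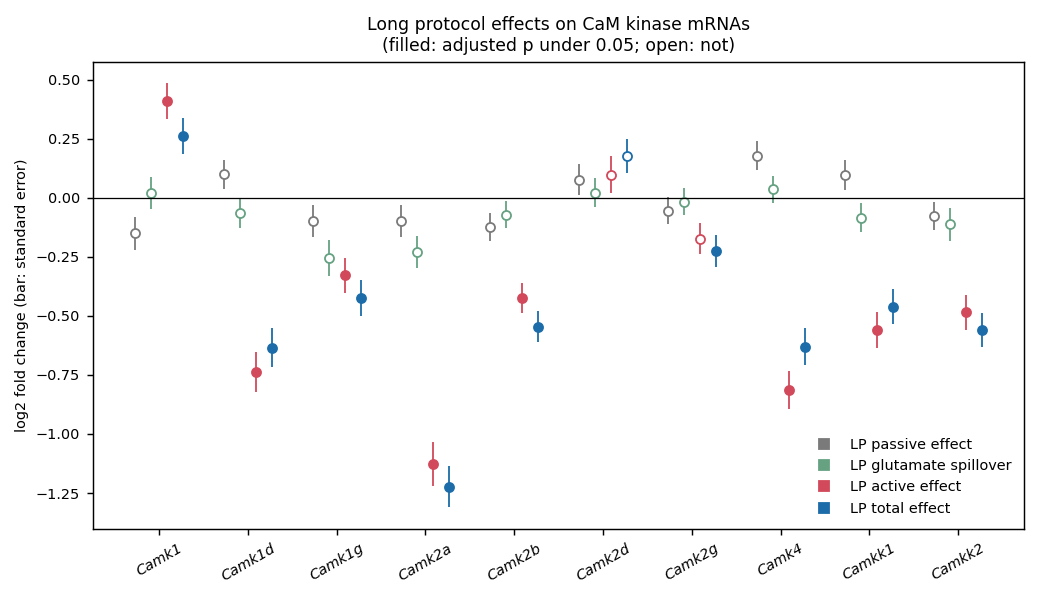
Log2 fold changes of the 10 CaM kinase genes in the LP (vertical axis) for the passive, spillover, active and total effects, with the SE as the bar, filled where the adjusted p was under 0.05. Active and total effects run from -1.13 and -1.22 for Camk2a to 0.41 and 0.26 for Camk1, while the open points of the passive and spillover effects lie between -0.25 and 0.18.

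Markers of cell types moved in the same libraries, where the LP active effect called 11.8% of all genes tested lower and 11.6% higher. Of genes with at least 1 CPM, 46.9% were called, 26.9% lower. From LP TTX to TTX/NMDA, the summed level of 3 markers of excitatory neurons (Slc17a7, Slc17a6, Neurod2) went from between 1009 and 1281 CPM to between 539 and 769 CPM, and all 3 were called lower (Slc17a7, -0.83). That of 3 markers of inhibitory neurons went from between 1414 and 2067 to between 1565 and 2302 CPM, with Slc32a1 called higher. Of 5 general neuronal markers only Map2 was called, lower (-0.59), and their sum went from between 5477 and 5948 to between 4726 and 5077 CPM. Astrocyte markers summed to between 368 and 755 CPM with TTX and to between 651 and 1345 CPM with TTX/NMDA, and 5 of 5 were called higher. Markers of the oligodendrocyte lineage summed to between 99.0 and 165 and to between 156 and 308 CPM, with 4 of 5 called higher. Microglial markers summed to at most 8.09 CPM and those of fibroblasts and endothelium to at most 121 CPM in these libraries, and 2 of 5 and 2 of 4 were called higher. No marker list had a gene at 0 throughout. The part of these shifts in the changes of the CaM kinases was not tested.

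TTX alone, the passive effect of the LP, gave no call among the 10 members, where 4.65% of 31944 genes were called. Their fold changes lay between -0.15 and 0.18, and 3 had an unadjusted p under 0.05. With the preparation as a block 4 members were called, with Camk4 higher (0.17, adjusted p = 0.00607) and Camk1 (-0.16, adjusted p = 0.013), Camk2a (-0.11, adjusted p = 0.0455) and Camk2b (-0.13, adjusted p = 0.0149) lower, where this fit called 32% of the 15570 genes it tested. DESeq2 called Camk4 (0.17, adjusted p = 0.0496). Camk4 was higher with TTX in 5 of 5 preparations, by 4.57% to 31.01%.

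Glutamate spillover under TBOA gave no call either (background 0.602% of 31706 genes), with 2 members at an unadjusted p under 0.05. Camk1g had 38.7, 44.4, 39.1, 49.7 and 47.5 CPM with TBOA, each below the 2 h Bic library of its preparation, and Camk2a had 1165, 916, 944, 938 and 1093 CPM, likewise below. Their fold changes were -0.25 (SE 0.08, adjusted p = 0.159) and -0.23 (SE 0.07, adjusted p = 0.162). With the preparation as a block both were called (-0.25, adjusted p = 0.042, and -0.23, adjusted p = 0.0324), against 2.67% of 15628 genes in that fit. Camk1g was also called without preparation 7 (-0.31, adjusted p = 0.0462) or 8 (-0.26, adjusted p = 0.0336), and Camk2a without preparation 8 (-0.27, adjusted p = 0.0111). The other 8 members lay between -0.11 and 0.03.

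In the SP, where NMDA was present for 0.5 h, 4 members fell in the active effect and none rose (background 4.28% of 32229 genes, 3.32% lower, and 9.54% among genes with at least 1 CPM). Camk2a had 1302, 982, 1275, 1027 and 1174 CPM with SP TTX and 808, 638, 681, 590.4 and 789.9 CPM with TTX/NMDA, without overlap, an effect of -0.72 (SE 0.09, adjusted p = 5.80e-07). Camk1d went from 180 ± 8.85 to 140 ± 19.4 CPM (-0.37, SE 0.08, adjusted p = 0.00211) and Camk4 from 373 ± 32.6 to 293 ± 28.3 CPM (-0.35, SE 0.07, adjusted p = 0.00222), both without overlap and lower in 5 of 5 preparations. The libraries of TTX and TTX/NMDA did not overlap for 3 of 10 members and for 4.95% of all genes tested. Camkk2 went from 168 ± 18.9 to 140.5 ± 11.4 CPM (-0.26, SE 0.08, adjusted p = 0.0369), with overlapping libraries. That call was lost without preparation 1 (-0.26, adjusted p = 0.0816) or 6 (-0.20, adjusted p = 0.156), with filterByExpr (-0.25, adjusted p = 0.0614) and with all 45 libraries in a fit (-0.25, adjusted p = 0.0528). With the preparation as a block Camk1 was called as higher (0.24, adjusted p = 0.012) and Camkk1 as lower (-0.18, adjusted p = 0.0394) besides these 4, among 16.2% of 15705 genes. The summed level of the excitatory markers was 1001 to 1285 CPM with SP TTX and 737 to 1036 CPM with TTX/NMDA, with 2 of 3 called lower, while 2 of 3 inhibitory markers were called higher and 0 of 5 astrocyte markers were called by edgeR. The part of these markers in the changes was not tested.

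The SP total effect named the genes Camk1d (-0.33, adjusted p = 0.00712), Camk2a (-0.70, adjusted p = 6.76e-08), Camk4 (-0.26, adjusted p = 0.0282) and Camkk2 (-0.24, adjusted p = 0.0313), against a background of 4.3% (3.41% lower). With the preparation as a block 8 members were called, among 27.3% of 15435 genes, with Camk1 (0.18, adjusted p = 0.0255) and Camk2d (0.16, adjusted p = 0.0176) higher and Camk1g (-0.19, adjusted p = 0.0144) and Camk2b (-0.20, adjusted p = 0.00271) lower in addition. Several calls without the block depended on single preparations. Camk1d was lost without preparation 1 (-0.28, adjusted p = 0.0717), and Camk4 without preparation 1 (-0.22, adjusted p = 0.184), 3 (-0.22, adjusted p = 0.128) or 7 (-0.26, adjusted p = 0.054). Camkk2 was lost without preparation 1 (-0.22, adjusted p = 0.137), 3 (-0.25, adjusted p = 0.0563), 6 (-0.23, adjusted p = 0.107) or 7 (-0.23, adjusted p = 0.11) and with all 45 libraries in a fit (-0.24, adjusted p = 0.086). The SP passive effect called no member (background 0.268%), with fold changes from -0.09 to 0.08 and no unadjusted p under 0.05 among the members.

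The difference between the LP and SP active effects was tested as an interaction over the 20 libraries with TTX or TTX/NMDA. Of 10 members only Camk4 was called, with an LP effect lower than the SP effect by 0.44 on the log2 scale (SE 0.12, adjusted p = 0.0266, background 2.57% of 35027 genes, 1.85% lower). This call was lost without preparation 1 (-0.41, adjusted p = 0.0787) or 7 (-0.44, adjusted p = 0.0512). For Camk2a the difference was -0.39 (SE 0.14, 95% interval -0.66 to -0.11, adjusted p = 0.159) and for Camkk1 -0.35 (SE 0.10, adjusted p = 0.0516). With the preparation as a block 7 members differed, all with a lower LP value, namely Camk1d (-0.36), Camk1g (-0.23), Camk2a (-0.41), Camk2b (-0.25), Camk4 (-0.46), Camkk1 (-0.37) and Camkk2 (-0.23), among 25% of 16663 genes. The passive effects differed between LP and SP for no member (background 0.256%), with differences from -0.12 to 0.09 and no unadjusted p under 0.05. Between the protocols the length of the NMDA exposure and the time in Bic before it differed together, and these cannot be told apart.

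**Figure D4:**
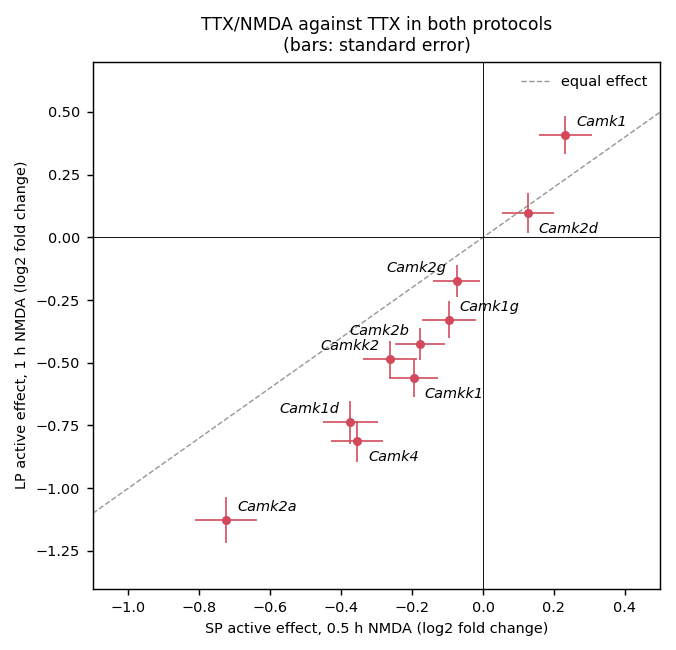
Active effect of each CaM kinase gene in the SP (horizontal axis) and the LP (vertical axis) as log2 fold changes, with SEs as bars and a dashed line where both are equal. Camk2a lies at -0.72 and -1.13 and Camk4 at -0.35 and -0.81, below the line, and Camk1 at 0.23 and 0.41, above it.

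The calmodulin genes and the regulators of the kinases moved less uniformly. Of 9 such genes, 3 were called lower and 2 higher in the LP active effect. It called 23.3% of all genes tested and 46.9% of those with at least 1 CPM (26.9% lower), a share near that of the 9. Their median was 0.13, beside 0.11 for all genes tested and -0.01 for genes with at least 1 CPM. Calm3, which encodes the same calmodulin protein as Calm2, fell by 0.24 (SE 0.07, adjusted p = 0.0137) on the log2 scale, while Calm2 had -0.03 (SE 0.06, adjusted p = 0.812). Ppm1e, a phosphatase that removes the activating phosphate from CaM kinases, fell from 525 to 319 CPM on average (-0.73, SE 0.08, adjusted p = 3.92e-08). Pcp4, a small protein that binds calmodulin, rose from 19.4 to 25.4 CPM (0.38, SE 0.08, adjusted p = 0.000674). Camk2n1, an inhibitor of CaMKII, had 0.20 (SE 0.09, adjusted p = 0.0979) in the active effect and rose in the total effect (0.25, SE 0.07, adjusted p = 0.0114, 5 of 5 preparations).

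Among 6 other kinases of the group, 3 were called lower and 0 higher in the LP active effect, where 11.8% of all genes tested and 26.9% of those with at least 1 CPM were called lower. Camkv, a pseudokinase that binds calmodulin, fell from 678 to 471 CPM (-0.53, SE 0.06, adjusted p = 1.19e-07) and Dclk1, a kinase with microtubule-binding domains, from 1118 to 760.3 CPM (-0.56, SE 0.08, adjusted p = 3.57e-06). Of 14 partners and targets of CaM kinases, 8 were called lower and 0 higher, with a median of -0.30. Grin2b, the NMDA receptor subunit that docks CaMKII, fell by 0.88 (SE 0.08, adjusted p = 9.18e-10) on the log2 scale. Kalrn, a guanine nucleotide exchange factor of dendritic spines, fell by 0.72 (SE 0.08, adjusted p = 4.99e-08). Of 6 genes of calcineurin, the phosphatase that calmodulin also activates, 2 were called lower, a share near that of genes with at least 1 CPM, with Ppp3cb at -0.36 (SE 0.08, adjusted p = 0.000642). In the LP passive effect 0 of 6 other kinases, 2 of 9 regulators, 1 of 6 calcineurin genes and 3 of 14 partners were called by edgeR, beside 4.65% of all genes tested.

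Several members varied together. Over the 45 libraries, with each preparation's mean removed from the log2 CPM, Pearson's r was 0.95 between Camk4 and Camk1d, 0.94 between Camk2a and Camk1d and 0.93 between Camkk2 and Camk2a, while Camk1 ran opposite to Camk1d (-0.86) and Camk4 (-0.86). Among the 13592 genes with at least 1 CPM, those most like Camk2a were Nf2 (r = 0.99), Galnt17 (0.99) and Tbc1d16 (0.98). Among the 3 most like Camk4 were Tmod2 (0.98) and Cnksr2 (0.97), and those most like Camk1d were Tmem178b (0.98), Slc7a14 (0.98) and Dmxl2 (0.98). The libraries share conditions and preparations, and these values are descriptions without a test.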

How the data were processed

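Poly-A RNA of 45 cultures was sequenced from 9 conditions with 5 culture preparations each. Per the labels and the methods, the authors made directional libraries, sequenced them single-end with 75 cycles, aligned reads with STAR (2.5.4b) to GRCm38 with Ensembl annotation and counted them with featureCounts (1.6.5) on the sense strand, leaving out reads of several positions or genes. The deposited values are raw counts per gene, without normalization, in 1 table whose 45 columns each matched 1 sample. Symbols (54409 of 54532 genes) came from a table of Ensembl identifiers, and positions and lengths from GENCODE M21.

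Each comparison was fitted on its own libraries with edgeR 4.0.16 (glmQLFit, glmQLFTest, TMM) in R 4.3.3, over every gene that had a read (minimum 1) in some library of it, with Benjamini-Hochberg adjustment over all tested genes and calls at an adjusted p under 0.05. The SE was taken as the size of the log2 fold change over the square root of F, and 95% intervals as 1.96 SE. The correlations used log2(CPM + 0.5). The difference between protocols was tested as an interaction. The steps were tested on simulated data. Replicate numbers are those of the culture preparation in the labels, and same-numbered libraries deviated together with mean correlations from 0.37 to 0.56 in the comparisons over 13592 genes (single pairs from -0.22 to 0.74). Since the labels give the pairing, each comparison was also fitted with the preparation as a block, over genes passing edgeR's filterByExpr. Other alternatives were size factors by RLE, filterByExpr, DESeq2 1.42.0, all 45 libraries in 1 fit and leaving out each preparation.

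All 10 members are described. From lists of related genes, the calmodulin genes, Camk2n1 and up to 3 genes per list with the largest called LP total effect were named, as were the 3 genes most correlated with each of the 3 members of the widest range. Some genes that this rule names are not reported here. Members and lists were chosen with earlier results of these data known. Read counts bound the precision: members had between 345 and 92355 reads per library. Preparations are separate cultures, and the p-values weigh an effect against the spread among the libraries of a condition. With the preparation as a block, differences shared by the libraries of a preparation are taken out first.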

Additional observations from a re-analysis of the deposited data

Results flagged for a closer look

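In 3 of 90 member levels (10 genes in 9 conditions of 5 libraries), a single library stood apart from the other 4 of its condition, where chance alone flags about 1 in 20 groups. Camk1 with SP TTX was highest in preparation 3, at 34.39 CPM beside 29.54 to 30.66 CPM in the others. With TBOA, Camk2b was highest in preparation 3, at 1090 CPM beside 1053 to 1063 CPM, and Camkk1 was lowest there, at 48.65 CPM beside 54.03 to 56.22 CPM. The gap was more than 0.71 of the range in each case. The active effect of Camk4 differed between the protocols by -0.44 (SE 0.12, adjusted p = 0.0266 by edgeR's interaction test), the LP value being the lower.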

How the results depend on the processing

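Of the member effects, 60 were followed over 10 alternatives, among them the 28 that were called. Uncalled effects of some comparisons, such as those of the SP, were left out, so calls gained there are not in these counts. Of the values, 551 kept direction and side of the threshold, and 22 lost and 17 gained a call. Another 10 changed sign, all of effects that were not called. Camk4 after 2 h of Bic (-0.0025) was 0.0103 with RLE and with DESeq2, 0.0038 with filterByExpr, 0.0085 with the replicate block and filterByExpr, 0.0092 with all 45 libraries in 1 fit and -0.0477 to 0.0463 leaving out 1 preparation. Such ranges were -0.099 to 0.0287 for Camk1d and -0.0243 to 0.0606 for Camk2d after 2 h of Bic, and -0.0035 to 0.0528 for Camk2d under TBOA. Counts of called members went, for 2 against 1 h of Bic, from 1 to 0 with all 45 libraries and lay at 0 to 1 leaving out preparations. With the replicate block and filterByExpr together they went from 4 to 8 (SP total effect, 5 with filterByExpr alone), from 0 to 4 (LP passive effect, 1 with DESeq2), from 0 to 2 (spillover) and from 1 to 7 (LP against SP active effect). The last was 2 with RLE, filterByExpr or all 45 libraries, 3 with DESeq2 and 0 to 3 leaving out preparations, which gave 1 to 4 for the SP total effect and 0 to 2 for spillover. Beside the calls given with the results, that fit changed no call of a member. The cause was not tested. RLE moved the median of all genes by at most 0.0143. The SE of a member's fold change between conditions was 0.0574 to 0.101, and smaller effects were not resolved with 5 preparations. Larger effects also went without a call by edgeR, such as Camk1g under TBOA (-0.25, adjusted p = 0.159) and Camk4 in the LP passive effect (0.18, adjusted p = 0.106). A missing call therefore does not show that an effect was absent.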

Other observations

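After 2 h of Bic, when Camk1g was the member that rose (0.40), edgeR called 0 of 6 other kinases of the group, 1 of 9 regulators, 0 of 6 calcineurin genes and 3 of 14 partners and targets, beside 9.02% of all genes tested and 18.6% of those with at least 1 CPM. The called genes follow, picked after their values were seen. Prkaa1, a catalytic subunit of AMPK, fell from 28.3 to 15.4 CPM on average (-0.88, SE 0.09, adjusted p = 2.28e-09 by edgeR, lower in 5 of 5 preparations), and Creb1, the CREB gene itself, from 49.0 to 30.5 CPM (-0.69, SE 0.08, adjusted p = 6.88e-08, 5 of 5). Hdac5, a class IIa histone deacetylase that CaM kinases send out of the nucleus, rose from 229 to 331 CPM (0.52, SE 0.08, adjusted p = 7.22e-06, 5 of 5), and Camk2n2, an inhibitor of CaMKII, from 114 to 149 CPM (0.37, SE 0.07, adjusted p = 0.000463, 5 of 5).

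With TTX in the LP, whose passive effect shares the 2 h Bic libraries with the values above, Prkaa1 was at 23.01 CPM (0.57 relative to Bic, SE 0.08, adjusted p = 1.60e-05), Creb1 at 38.1 CPM (0.31, SE 0.08, adjusted p = 0.0262), Hdac5 at 269 CPM (-0.31, SE 0.06, adjusted p = 0.00109) and Camk2n2 at 124 CPM (-0.28, SE 0.07, adjusted p = 0.0115). Their LP active effects were not called, at -0.22 for Prkaa1, -0.07 for Creb1, -0.17 for Hdac5 and 0.13 for Camk2n2.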
